A study of Homo sapiens with 9 samples.

Results

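Of the 18064 gene rows in the table of RNA sequencing values, 77 belonged to protein-coding genes whose symbols begin with MRPL or MRPS and a number, the mitochondrial ribosomal protein genes. They were found by joining the table's Entrez gene identifiers to RefSeq symbols and matching the pattern of the name. Of these, 51 encode proteins of the large subunit, 30 with a bacterial counterpart and 21 found in mitochondrial ribosomes alone, and 26 encode proteins of the small subunit, 16 with a bacterial counterpart and 10 without. MRPS30 and MRPS18A, named for the small subunit, sit in the large subunit and were counted there. MRPS18A and MRPS18B are related to the bacterial protein S18 but sit at other sites, and both were counted as without a bacterial counterpart. All 77 passed the filter on low values.

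The mitochondrial ribosome makes the few core proteins of the respiratory chain that mitochondrial DNA still encodes. Its RNAs come from mitochondrial DNA, whereas each of its proteins is encoded in the nucleus, made in the cytosol, imported and assembled onto those RNAs in a set order with the help of dedicated GTPases, helicases and RNA-modifying enzymes. Breast and lung cancer cells, like most dividing cells, express these genes throughout, and they are usually counted among housekeeping genes.

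The study compared 9 libraries of human cells in culture, 3 treated with a first siRNA (si1-BCLIN25), 3 with a second siRNA (si2-BCLIN25) and 3 with a control siRNA (si-NC). By the titles both siRNAs target the RNA BCLIN25, and all 3 groups are MDA-MB-231/PTX cells, a paclitaxel-resistant derivative of a breast cancer line. Other fields attached to every library name PC9/GR, a lung adenocarcinoma line made resistant to gefitinib, and HUMT as the RNA knocked down, with shRNAs in place of siRNAs. The line, the target and the agent are therefore not settled by the labels, and the groups are called siRNA groups after the titles. BCLIN25 was not analysed here, and the knockdown was therefore not checked. Whether the replicates came from separate cultures is not stated, and p-values cover only the spread between the libraries, which may be technical. The table's header marks the 3 si-NC columns with a prefix absent from the other 6, so a difference in handling and the difference in siRNA cannot be told apart in any comparison with si-NC.

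Values were FPKM, read fragments corrected for transcript length and library size, which summed to between 394081 and 419025 per library; sequencing depth is unknown. Between 12091 and 12139 genes reached 1 FPKM in the siRNA libraries, against 11812 to 11856 in si-NC. Epithelial genes were high in every library, with CDH1 at 31.4 to 46.5 FPKM and EPCAM at 92.7 to 143 FPKM. Of 9 markers of the mesenchymal-like MDA-MB-231 line, 7 were above 1 FPKM in all libraries, among them CAV1 (273 to 388 FPKM), FN1 (125 to 529) and VIM (13.5 to 81.3), while ZEB1 (at most 0.14) and SPARC (at most 0.06) were near 0. Of 5 markers of PC9 and lung, EGFR was at 34.5 to 59.6 FPKM, SFTPB and MUC1 at 1.96 and 2.0 FPKM or less, and NKX2-1 (at most 0.78) and NAPSA (at most 0.34) were near 0. The 9 MDA-MB-231 markers summed to 742 to 763 FPKM in si1-BCLIN25 and 786 to 802 FPKM in si2-BCLIN25, against 1453 to 1509 FPKM in si-NC. VIM, CD44, AXL, MSN, FN1 and TGFBI were lower in both siRNA groups. MSN was at 3.85 to 4.22 FPKM in si1-BCLIN25 and 3.92 to 4.57 in si2-BCLIN25, against 71.5 to 73.6 in si-NC. CAV1 went the other way, at 359 to 374 FPKM in si1-BCLIN25 and 379 to 388 in si2-BCLIN25, against 273 to 294 in si-NC. The 5 PC9 and lung markers summed to 38.5 to 41.8 FPKM in si1-BCLIN25 and 39.6 to 41.0 FPKM in si2-BCLIN25, against 55.2 to 60.8 FPKM in si-NC. Most of that sum was EGFR, at 34.5 to 37.5 FPKM in si1-BCLIN25 and 35.7 to 36.7 in si2-BCLIN25, against 53.3 to 59.6 in si-NC. MUC1, SFTPB, NKX2-1 and NAPSA went the other way at low levels. MUC1 was at 1.37 to 1.72 FPKM in si1-BCLIN25 and 1.69 to 2.0 in si2-BCLIN25, against 0.25 to 0.32 in si-NC. The 5 epithelial markers summed to 1969 to 2129 FPKM in si1-BCLIN25 and 1918 to 1997 FPKM in si2-BCLIN25, against 1175 to 1241 FPKM in si-NC. Most of that sum was KRT19, at 1588 to 1736 FPKM in si1-BCLIN25 and 1515 to 1589 in si2-BCLIN25, against 654 to 724 FPKM in si-NC. EPCAM and KRT18 went the other way, EPCAM at 92.7 to 98.5 FPKM in si1-BCLIN25 and 104 to 108 in si2-BCLIN25, against 136 to 143 FPKM in si-NC, and KRT18 at 166 to 184 FPKM in si1-BCLIN25 and 176 to 181 in si2-BCLIN25, against 296 to 306 FPKM in si-NC. The 6 fibroblast markers summed to 27.5 to 29.1 FPKM in si1-BCLIN25 and 26.5 to 28.2 FPKM in si2-BCLIN25, against 15.2 to 16.4 FPKM in si-NC. Most of that sum was THY1, at 12.7 to 14.6 FPKM in si1-BCLIN25 and 13.7 to 15.75 in si2-BCLIN25, against 10.6 to 11.7 in si-NC, and COL1A1. COL1A1 was at 9.23 to 9.37 FPKM in si1-BCLIN25 and 8.24 to 9.21 in si2-BCLIN25, against 3.18 to 4.05 in si-NC. LUM was at 4.56 to 5.32 FPKM in si1-BCLIN25 and 3.8 to 4.42 in si2-BCLIN25, against 0.36 to 0.58 in si-NC. COL1A2 was at or below 0.02, COL3A1 at or below 0.04 and DCN at or below 0.24 FPKM. The 3 leukocyte markers analysed summed to 44.9 to 45.7 FPKM in si1-BCLIN25 and 40.5 to 40.6 FPKM in si2-BCLIN25, against 57.3 to 62.4 FPKM in si-NC, most of it LAPTM5 (36.3 to 58.0 FPKM over the libraries). These sums move with the comparisons with si-NC, and their part in the results was not tested. In bulk RNA, fewer cells of a type and less RNA per cell cannot be told apart.

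Every one of the 77 genes was above 1 FPKM in all 9 libraries. Group means ran over a wide range, lowest for MRPS25, a small-subunit protein with no bacterial counterpart, at 6.40 ± 0.068 FPKM in si1-BCLIN25, 6.77 ± 0.39 in si2-BCLIN25 and 6.66 ± 0.20 in si-NC (SD, n = 3 each). They were highest for MRPL51, a large-subunit protein with no bacterial counterpart, at 154 ± 12.1 FPKM in si1-BCLIN25, 140 ± 0.49 in si2-BCLIN25 and 147 ± 24.6 in si-NC. Besides MRPS25, the low end held MRPS11 (7.14 to 8.19 FPKM by group mean), counterpart of the platform protein S11, MRPL22 (7.68 to 8.51 FPKM), counterpart of a protein that lines the bacterial exit tunnel, and MRPL19 (9.17 to 12.5 FPKM). Besides MRPL51, the high end held MRPS24 (92.7 to 134 FPKM), MRPL3 (85.8 to 101 FPKM), counterpart of a protein close to the peptidyl transferase centre, and MRPS15 (86.1 to 99.7 FPKM), whose counterpart binds early to the small-subunit RNA in Escherichia coli. The medians of the subunits lay in the same range. In single libraries the median large-subunit gene was at 31.0 to 33.7 FPKM with an siRNA against BCLIN25 and 29.4 to 32.6 FPKM in si-NC, and the median small-subunit gene at 30.2 to 33.0 and 29.7 to 31.7 FPKM. Replicates lay close together: the median coefficient of variation over the genes was 4.88% in si1-BCLIN25, 3.96% in si2-BCLIN25 and 6.24% in si-NC.

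**Figure D1:**
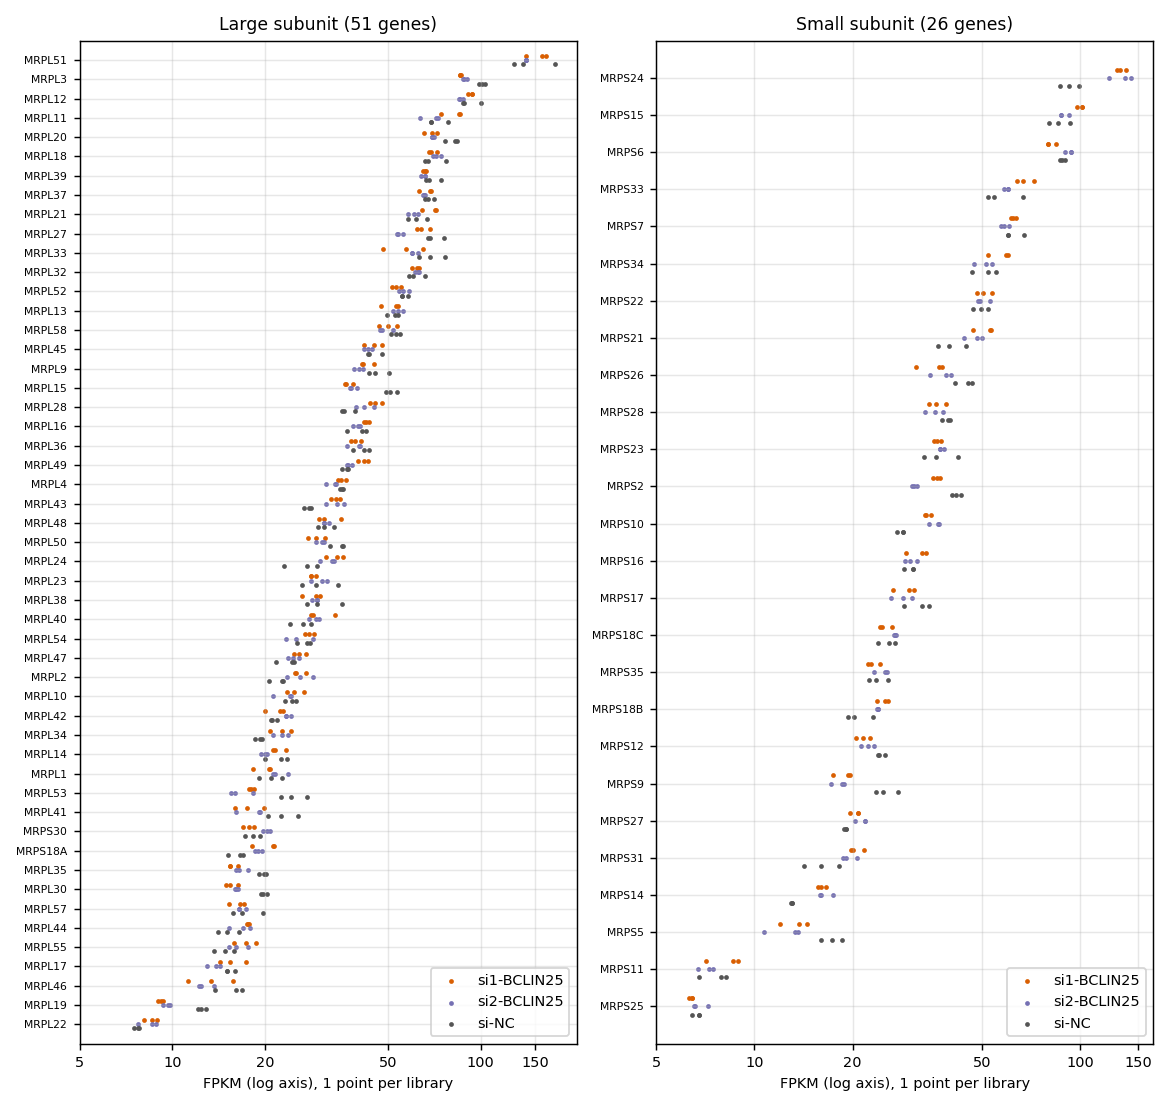
FPKM of the 77 genes in each of the 9 libraries, 1 point per library, on a log axis, with large-subunit genes on the left, small-subunit genes on the right and genes ordered by mean level. Levels run between MRPS25 at group means of 6.40 to 6.77 FPKM and MRPL51 at 140 to 154 FPKM.

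Summed over the 77 genes, the level was 3073 ± 65.5 FPKM in si1-BCLIN25, 2991 ± 17.6 in si2-BCLIN25 and 3046 ± 108 in si-NC (SD, n = 3 each), so the group sums differed by less than the spread of the si-NC libraries. As a share of all FPKM the genes made up 0.739 ± 0.0093% in si1-BCLIN25, 0.729 ± 0.0048% in si2-BCLIN25 and 0.761 ± 0.016% in si-NC. By library the share was 0.7233 to 0.7317% in si2-BCLIN25, below every si-NC library (0.7485 to 0.7793%). In si1-BCLIN25 it was 0.7314 to 0.749%, overlapping si-NC. The total of all FPKM was itself lower in si-NC, at 394081 to 405922, against 408641 to 419025 in the siRNA libraries. The median gene stood at 32.6 ± 1.10 FPKM in si1-BCLIN25, 31.2 ± 0.28 in si2-BCLIN25 and 30.4 ± 0.82 in si-NC.

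The promoters of these genes are known for binding sites of GABP and other ETS factors, NRF1 and YY1, factors that act on many nuclear genes for mitochondrial proteins. Promoter windows running from 250 bases before to 30 bases after the transcription start, from RefSeq on GRCh38.p14, were found for 69 of the 77 genes. Both strands were searched for the letters CCGGAAG (GABP/ETS), AAGATGGC (YY1) and, for NRF1, GCGC and TGCGC parted by any 1 base, none of which is contained in another. The ETS motif stood in 29 of the 69 windows (42.0%), against 19.3% of 9992 windows of other genes tested and 10.3% of all 27305 windows. The YY1 motif stood in 17 (24.6%), against 4.40% and 2.53%, and the NRF1 motif in 8 (11.6%), against 11.9% and 6.20%. At least 1 motif was present in 42 windows. The windows of 4 genes are printed 5′ to 3′ on the strand of the gene, with motif matches in capitals: MRPS24, which had the largest rise in both siRNA groups (chr7:43869488-43869767, minus strand, 1 YY1 match just after the start), MRPS10, which also rose in both (chr6:42217832-42218111, minus strand, 1 ETS and 1 YY1 match), and the chromosome 2 genes MRPL53 (chr2:74472651-74472930, minus strand, 2 ETS matches, the second on the opposite strand) and MRPS9 (chr2:105037819-105038098, plus strand, 1 NRF1 match), which fell in both.
MRPS24: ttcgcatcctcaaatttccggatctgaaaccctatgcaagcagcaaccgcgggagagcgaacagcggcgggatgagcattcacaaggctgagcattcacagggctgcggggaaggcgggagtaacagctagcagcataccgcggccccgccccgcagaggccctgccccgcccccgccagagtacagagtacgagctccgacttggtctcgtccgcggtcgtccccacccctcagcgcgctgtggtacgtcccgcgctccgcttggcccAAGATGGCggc
MRPS10: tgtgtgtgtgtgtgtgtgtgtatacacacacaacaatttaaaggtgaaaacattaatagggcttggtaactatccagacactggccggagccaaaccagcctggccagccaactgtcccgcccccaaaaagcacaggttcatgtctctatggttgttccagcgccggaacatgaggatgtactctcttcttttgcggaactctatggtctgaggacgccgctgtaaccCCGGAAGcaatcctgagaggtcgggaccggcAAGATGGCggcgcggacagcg
MRPL53: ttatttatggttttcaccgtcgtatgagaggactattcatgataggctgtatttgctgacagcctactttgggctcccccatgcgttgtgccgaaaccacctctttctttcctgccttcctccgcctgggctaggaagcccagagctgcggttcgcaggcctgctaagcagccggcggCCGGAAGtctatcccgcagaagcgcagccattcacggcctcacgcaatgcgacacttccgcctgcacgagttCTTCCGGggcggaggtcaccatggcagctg
MRPS9: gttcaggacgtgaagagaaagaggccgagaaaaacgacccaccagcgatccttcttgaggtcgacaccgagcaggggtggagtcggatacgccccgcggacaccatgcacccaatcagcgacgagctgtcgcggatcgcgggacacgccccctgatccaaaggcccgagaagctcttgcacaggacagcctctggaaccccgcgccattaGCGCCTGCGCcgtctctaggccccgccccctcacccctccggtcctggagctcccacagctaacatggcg
Split by direction of change, the ETS motif stood in 8 of 18 windows of genes that rose in si1-BCLIN25, 7 of 14 of genes that fell and 14 of 37 of genes not called, and in 6 of 14, 7 of 17 and 16 of 38 for si2-BCLIN25. The YY1 motif stood in 3 of 18, 2 of 14 and 12 of 37 windows for si1-BCLIN25 and in 6 of 14, 3 of 17 and 8 of 38 for si2-BCLIN25. The NRF1 motif stood in 1 of 18, 2 of 14 and 5 of 37 windows for si1-BCLIN25 and in 0 of 14, 3 of 17 and 5 of 38 for si2-BCLIN25. These shares are a description of letters in windows, with no test.

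With si1-BCLIN25 set against si-NC, the genes moved both ways and by small amounts. Of the 77, 20 rose, 16 fell and 41 were not called, where a call is a Benjamini-Hochberg adjusted p under 0.05 over all 12317 genes tested, from limma on log2(FPKM + 1). That is 46.8% called, whereas over all genes tested 63.1% were called, 38.4% higher and 24.6% lower. Log2 fold changes of the genes ran between -0.45 and 0.52 with a median of 0.0003, beside a median of 0.06 over all genes tested, and none reached a 2-fold change, which 4.64% of all genes tested did. For 36 genes the 3 si1-BCLIN25 libraries lay wholly above or below the 3 si-NC libraries, beside 64.7% of all genes tested. Centring each library on its median turned the split to 14 higher and 22 lower, and leaving out 1 library gave 14 higher and 21 lower (si-NC replicate 2), 17 and 17 (si-NC replicate 3) or 16 and 18 (si1-BCLIN25 replicate 3). Which direction has more genes therefore rests on the scaling and on single libraries.

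With si2-BCLIN25 set against the same si-NC libraries, 15 genes rose, 19 fell and 43 were not called. That is 44.2% called, whereas over all genes tested 63.0% were called, 38.6% higher and 24.4% lower. Values ran between -0.55 and 0.53 with a median of -0.02, beside 0.06 over all genes tested, and again none reached a 2-fold change (4.55% of all genes tested). The groups did not overlap for 36 genes, beside 67.1% of all genes tested. Median centring gave 11 higher and 27 lower, and leaving out si-NC replicate 1 turned the split to 17 higher and 16 lower. Both comparisons use the same 3 controls, and their calls are given side by side and their likeness is not counted as support: 12 genes were called higher in both, 14 lower in both, 0 in opposite directions and 33 in neither.

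**Figure D2:**
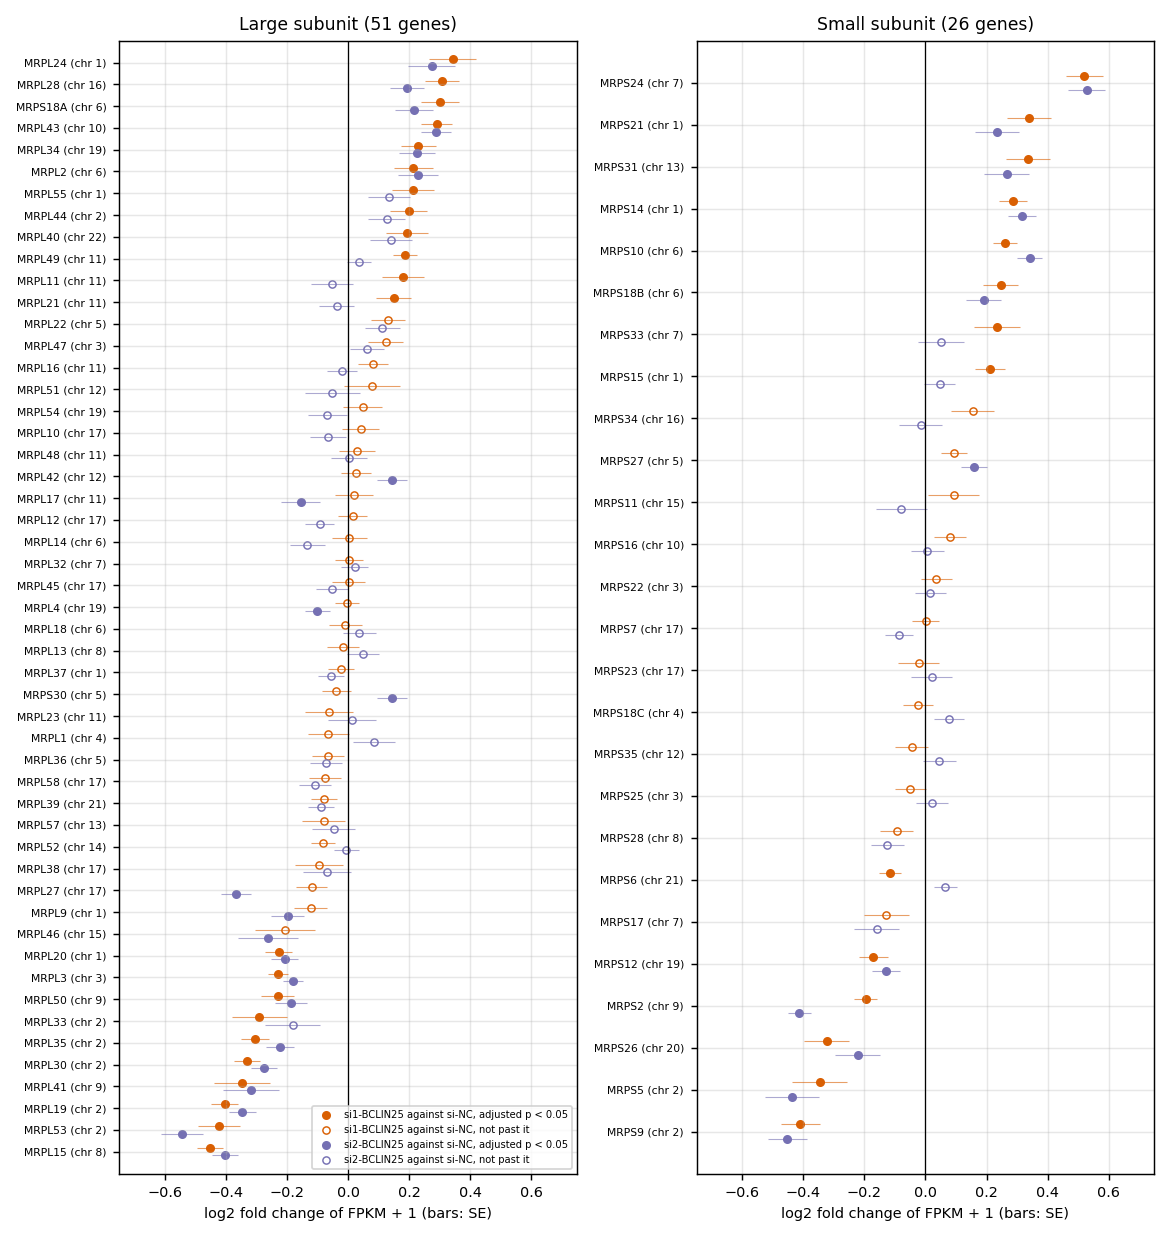
Log2 fold change of FPKM + 1 for each of the 77 genes, si1-BCLIN25 against si-NC (orange) and si2-BCLIN25 against si-NC (purple), with bars for the SE and filled points for a limma adjusted p under 0.05. In both subunits values spread to either side of 0, between -0.55 for MRPL53 and 0.53 for MRPS24.

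Both subunits, and each class of protein within them, had genes called in either direction. Large-subunit genes with a bacterial counterpart had 7 higher and 7 lower of 30 with si1-BCLIN25, and with si2-BCLIN25 4 and 10, with medians of -0.0012 for si1-BCLIN25 and -0.06 for si2-BCLIN25. Large-subunit genes without one had 5 higher and 3 lower of 21 with si1-BCLIN25 and 4 and 4 with si2-BCLIN25, with medians of -0.02 for si1-BCLIN25 and -0.05 for si2-BCLIN25. Small-subunit genes with a bacterial counterpart had 5 higher and 5 lower of 16 with si1-BCLIN25 and 4 and 4 with si2-BCLIN25, with medians of -0.01 for si1-BCLIN25 and -0.04 for si2-BCLIN25. Those without had 3 higher and 1 lower of 10 in both comparisons, with medians of 0.06 for si1-BCLIN25 and 0.03 for si2-BCLIN25.

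Among small-subunit genes that rose, MRPS24 (gene 64951, chromosome 7) stood highest. It is the counterpart of S3, which lies at the mRNA entry of the bacterial ribosome. Its levels were 132, 129 and 138 FPKM in si1-BCLIN25 and 137, 143 and 122 FPKM in si2-BCLIN25, against 99.2, 92.3 and 86.5 FPKM in si-NC. All 6 siRNA libraries lay above all 3 controls, with means 1.44 and 1.45 times that of si-NC, in log2 terms higher by 0.52 with si1-BCLIN25 and 0.53 with si2-BCLIN25 (SE 0.060, with limma adjusted p = 9.98e-06 and 8.76e-06). MRPS24 shares its locus with the read-through gene URGCP-MRPS24, listed at 9.14 ± 2.5 FPKM in si1-BCLIN25, 7.88 ± 6.64 in si2-BCLIN25 and 7.90 ± 1.29 in si-NC and called in neither comparison, and how reads were divided between them is not given in the sources used here.

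MRPS10 (gene 55173, chromosome 6), counterpart of a protein of the bacterial small-subunit head, was at 34.7, 33.3 and 33.6 FPKM in si1-BCLIN25 and 34.3, 36.7 and 36.8 FPKM in si2-BCLIN25, against 28.6, 28.5 and 27.3 FPKM in si-NC. No siRNA library came down to the controls, and MRPS10 rose by 0.26 with si1-BCLIN25 and 0.34 with si2-BCLIN25 in log2 terms (SE 0.040, limma adjusted p = 0.000106 and 1.1e-05). MRPS14 (gene 63931, chromosome 1), also of the head, was at 15.99, 15.7 and 16.6 FPKM in si1-BCLIN25 and 16.02, 15.9 and 17.4 FPKM in si2-BCLIN25, against 13.0 FPKM in each si-NC library. Its rises were 0.29 with si1-BCLIN25 and 0.32 with si2-BCLIN25 (SE 0.045, limma adjusted p = 0.000125 and 5.67e-05). MRPS31 (gene 10240, chromosome 13), with no bacterial counterpart, rose by 0.34 with si1-BCLIN25 and 0.27 with si2-BCLIN25 (SE 0.073, limma adjusted p = 0.00148 and 0.00672). Its level averaged 20.5 ± 0.99 FPKM in si1-BCLIN25 and 19.5 ± 1.04 in si2-BCLIN25, against 16.1 ± 1.96 FPKM in si-NC.

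MRPS21 (gene 54460, chromosome 1), counterpart of S21 of the bacterial platform, was at 46.9, 53.1 and 53.0 FPKM in si1-BCLIN25 and 48.2, 43.9 and 50.04 FPKM in si2-BCLIN25, against 44.5, 39.6 and 36.5 FPKM in si-NC. The si1-BCLIN25 libraries lay above the controls, whereas 1 si2-BCLIN25 library fell among them. In log2 terms it rose by 0.34 with si1-BCLIN25 and 0.23 with si2-BCLIN25 (SE 0.072, with limma adjusted p = 0.00137 and 0.0134), and the call in si2-BCLIN25 was lost under median centring (adjusted p = 0.0523), without si-NC replicate 3 (0.0625) and without si2-BCLIN25 replicate 3 (0.0575). MRPS21 has 9 pseudogenes named after it, with which it could share reads. MRPS15 (gene 64960, chromosome 1) rose in si1-BCLIN25 by 0.21 (SE 0.050, limma adjusted p = 0.00274), with 97.4, 101 and 101 FPKM against 93.1, 85.3 and 80.0 FPKM in si-NC. In si2-BCLIN25 it was at 87.0, 87.2 and 92.4 FPKM, inside the range of the controls.

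Of the large-subunit genes that rose, MRPL24 (gene 79590, chromosome 1), counterpart of a protein at the bacterial exit tunnel, was at 31.5, 35.8 and 34.3 FPKM in si1-BCLIN25 and 32.9, 30.2 and 33.5 FPKM in si2-BCLIN25, against 29.4, 27.3 and 23.1 FPKM in si-NC. Every siRNA library lay above every control, by little over the highest of them, and the rises were 0.34 with si1-BCLIN25 and 0.27 with si2-BCLIN25 (SE 0.077, limma adjusted p = 0.00187 and 0.0078). MRPL43 (gene 84545, chromosome 10), without a bacterial counterpart, averaged 33.9 ± 1.17 FPKM in si1-BCLIN25 and 33.9 ± 2.34 in si2-BCLIN25, against 27.6 ± 0.77 FPKM in si-NC, with rises of 0.29 in each comparison (SE 0.050, limma adjusted p = 0.00027 and 0.000283). MRPL28 (gene 10573, chromosome 16), which has a bacterial counterpart, averaged 45.7 ± 2.10 FPKM in si1-BCLIN25 and 42.2 ± 2.86 in si2-BCLIN25, against 36.8 ± 1.98 FPKM in si-NC, with rises of 0.31 with si1-BCLIN25 and 0.19 with si2-BCLIN25 (SE 0.055, limma adjusted p = 0.000375 and 0.00883). MRPL55 (gene 128308, chromosome 1), counterpart of L31, was called in si1-BCLIN25 alone at 0.21 (SE 0.069, limma adjusted p = 0.0171), and that call was lost under median centring (0.0533), without si-NC replicate 3 (0.0764) and without si1-BCLIN25 replicate 1 (0.0762).

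MRPS18A, MRPS18B and MRPS18C descend from 1 bacterial protein, S18, and occupy 3 different places: MRPS18C takes the site of S18 itself, MRPS18B another site of the small subunit and MRPS18A a site in the large subunit. In the class counts above, only MRPS18C was placed with the genes that have a bacterial counterpart. MRPS18A (gene 55168, chromosome 6) was at 18.1, 21.4 and 21.3 FPKM in si1-BCLIN25 and 18.9, 19.5 and 18.6 FPKM in si2-BCLIN25, against 16.5, 15.2 and 16.98 FPKM in si-NC. MRPS18B (gene 28973, chromosome 6) was at 23.8, 25.7 and 25.1 FPKM in si1-BCLIN25 and 23.9, 23.8 and 24.0 FPKM in si2-BCLIN25, against 20.2, 23.1 and 19.3 FPKM in si-NC. Both lay above the controls in all 6 siRNA libraries, with rises of 0.30 with si1-BCLIN25 and 0.22 with si2-BCLIN25 for MRPS18A (SE 0.062, limma adjusted p = 0.00109 and 0.00901) and of 0.25 with si1-BCLIN25 and 0.19 with si2-BCLIN25 for MRPS18B (SE 0.057, limma adjusted p = 0.00242 and 0.0113). The si2-BCLIN25 call of MRPS18B was lost under median centring (adjusted p = 0.052) and without si-NC replicate 3 (0.0523). MRPS18C (gene 51023, chromosome 4) was called in neither, at 25.1 ± 1.15 FPKM in si1-BCLIN25 and 27.0 ± 0.23 in si2-BCLIN25, against 25.6 ± 1.60 FPKM in si-NC, and 6 pseudogenes carry its name.

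Among the genes that fell, MRPL15 (gene 29088, chromosome 8), counterpart of a core protein of the bacterial large subunit, was at 38.7, 36.7 and 36.2 FPKM in si1-BCLIN25 and 38.0, 37.7 and 39.8 FPKM in si2-BCLIN25, against 53.7, 49.15 and 50.9 FPKM in si-NC. No siRNA library reached the lowest control, and MRPL15 fell by 0.45 with si1-BCLIN25 and 0.40 with si2-BCLIN25 in log2 terms (SE 0.043, limma adjusted p = 1.65e-06 and 4.62e-06). MRPL41 (gene 64975, chromosome 9), a large-subunit protein without a bacterial counterpart, was at 15.98, 19.8 and 17.5 FPKM in si1-BCLIN25 and 19.1, 19.3 and 16.1 FPKM in si2-BCLIN25, against 20.5, 25.65 and 22.5 FPKM in si-NC. The groups did not overlap, but the highest siRNA library of each came close to the lowest control, and the falls were -0.35 with si1-BCLIN25 and -0.32 with si2-BCLIN25 (SE 0.092, limma adjusted p = 0.00543 and 0.00923). MRPL3 (gene 11222, chromosome 3), among the most abundant, was at 85.9, 86.2 and 85.4 FPKM in si1-BCLIN25 and 87.5, 90.6 and 88.5 FPKM in si2-BCLIN25, against 103, 98.6 and 101 FPKM in si-NC. It fell by 0.23 with si1-BCLIN25 and 0.18 with si2-BCLIN25 (SE 0.033, limma adjusted p = 5.12e-05 and 0.000377).

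**Figure D3:**
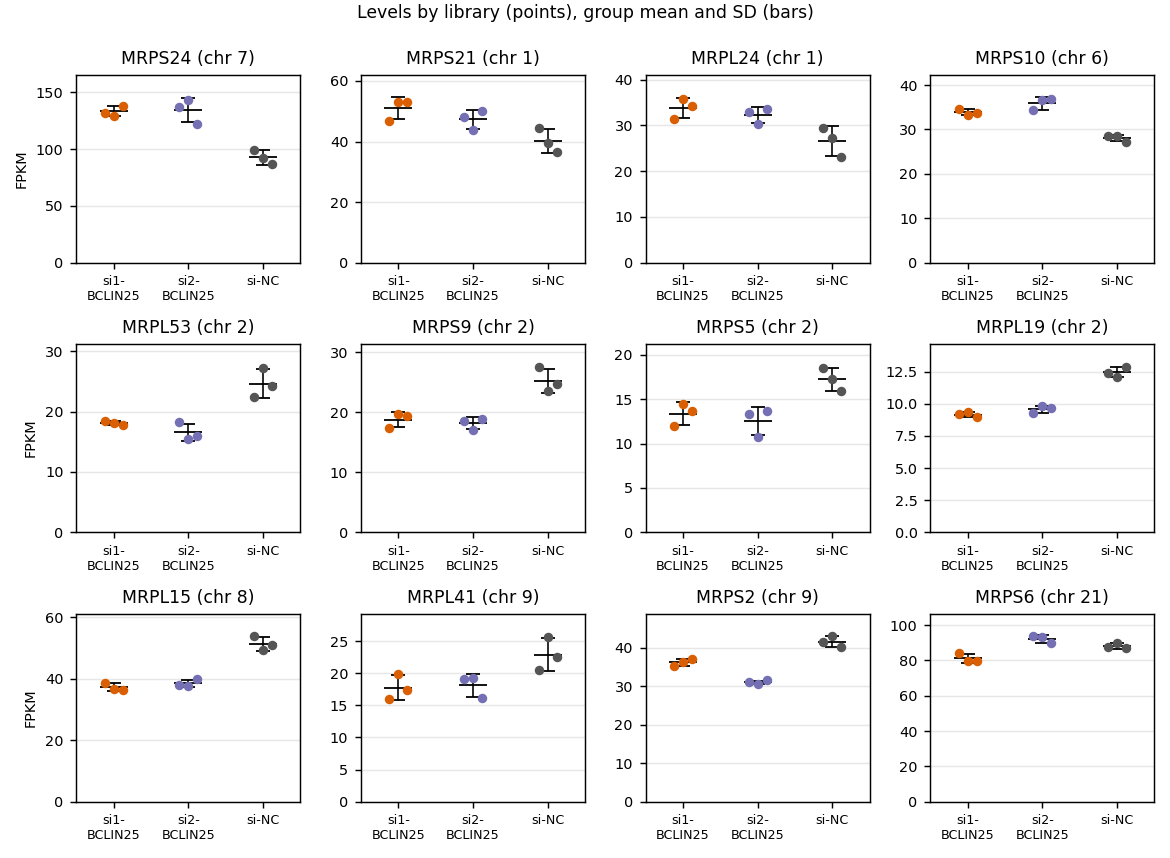
FPKM of 12 of the genes in each library (points, 3 per group), with the group mean and SD (bars), each panel starting at 0. MRPS24, MRPS21, MRPL24 and MRPS10 are higher in the siRNA groups than in si-NC, MRPL53, MRPS9, MRPS5, MRPL19, MRPL15 and MRPL41 lower, while MRPS2 and MRPS6 also differ between the siRNA groups.

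Chromosome 2 held 8 of the 77 genes, and 7 of them fell in si1-BCLIN25 and 6 in si2-BCLIN25. They were MRPL53, a large-subunit protein without a bacterial counterpart, MRPS9 and MRPS5, counterparts of the small-subunit proteins S9 and S5, and MRPL19, MRPL30, MRPL33 and MRPL35, which have large-subunit counterparts. MRPL33 was the exception in si2-BCLIN25. Summed, these 7 genes were at 144, 142 and 156 FPKM in si1-BCLIN25 and 155, 147 and 150 FPKM in si2-BCLIN25, against 198, 182 and 186 FPKM in si-NC. The 8 genes had medians of -0.34 for si1-BCLIN25 and -0.31 for si2-BCLIN25. Off chromosome 2, 69 genes had 19 higher and 9 lower with si1-BCLIN25, and with si2-BCLIN25 15 and 13, with medians of 0.0035 for si1-BCLIN25 and 0.0021 for si2-BCLIN25.

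MRPL53 (gene 116540) was at 18.4, 18.02 and 17.8 FPKM in si1-BCLIN25 and 18.2, 15.5 and 15.96 FPKM in si2-BCLIN25, against 22.5, 27.2 and 24.2 FPKM in si-NC. All siRNA libraries lay below all controls, with log2 differences of -0.42 with si1-BCLIN25 and -0.55 with si2-BCLIN25 (SE 0.069, with limma adjusted p = 0.000171 and 2.08e-05). MRPS9 (gene 64965) was at 17.4, 19.7 and 19.3 FPKM in si1-BCLIN25 and 18.6, 17.1 and 18.9 FPKM in si2-BCLIN25, against 27.5, 23.6 and 24.8 FPKM in si-NC, with -0.41 with si1-BCLIN25 and -0.45 with si2-BCLIN25 (SE 0.063, limma adjusted p = 0.000109 and 4.87e-05). MRPS5 (gene 64969) was at 11.9, 14.5 and 13.7 FPKM in si1-BCLIN25 and 13.3, 10.7 and 13.6 FPKM in si2-BCLIN25, against 18.55, 17.3 and 15.97 FPKM in si-NC, with -0.35 with si1-BCLIN25 and -0.44 with si2-BCLIN25 (SE 0.089, limma adjusted p = 0.00459 and 0.000953). Neither MRPS9 nor MRPS5 had an siRNA library within the range of its controls. MRPL19 (gene 9801) averaged 9.17 ± 0.20 FPKM in si1-BCLIN25 and 9.59 ± 0.27 in si2-BCLIN25, against 12.5 ± 0.40 FPKM in si-NC, with -0.40 with si1-BCLIN25 and -0.35 with si2-BCLIN25 (SE 0.045, limma adjusted p = 6.22e-06 and 2.43e-05).

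MRPL30 (gene 51263) and MRPL35 (gene 51318) fell by 0.33 and 0.31 in si1-BCLIN25 and by 0.28 and 0.22 in si2-BCLIN25, with limma adjusted p between 2.46e-05 and 0.00114. MRPL33 (gene 9553) was at 57.2, 48.3 and 64.8 FPKM in si1-BCLIN25 and 62.8, 59.7 and 60.1 FPKM in si2-BCLIN25, against 76.4, 63.1 and 68.6 FPKM in si-NC. Its si1-BCLIN25 libraries overlapped the controls, with log2 differences of -0.29 with si1-BCLIN25 and -0.18 with si2-BCLIN25 (SE 0.089, with limma adjusted p = 0.0128 and 0.093). Its call in si1-BCLIN25 was lost without si-NC replicate 1 (0.0531) and without si1-BCLIN25 replicate 2 (0.0547), and a call in si2-BCLIN25 was made in 6 alternatives (0.0248 to 0.0435). MRPL44 (gene 65080), whose protein resembles RNase III, is also on chromosome 2 and went the other way. It was at 17.7, 17.45 and 17.55 FPKM in si1-BCLIN25 and 15.3, 17.8 and 16.98 FPKM in si2-BCLIN25, against 16.5, 14.1 and 15.1 FPKM in si-NC, with 0.20 with si1-BCLIN25 and 0.13 with si2-BCLIN25 (SE 0.061, limma adjusted p = 0.0132 and 0.0908). Its call in si1-BCLIN25 was lost under median centring (0.0567) and without si-NC replicate 2 (0.0579), and a call in si2-BCLIN25 was made without si-NC replicate 1 (0.0201) or si2-BCLIN25 replicate 1 (0.0228).

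More of the other genes on chromosome 2 fell than rose. Of 814 other genes tested on the chromosome, 417 were called lower and 189 higher with si1-BCLIN25, and with si2-BCLIN25 405 and 189, with medians of -0.17 for si1-BCLIN25 and -0.16 for si2-BCLIN25. Taking the 25 nearest tested genes on each side in RefSeq order, other mitochondrial ribosomal protein genes left out, the neighbours of MRPS9 had medians of -0.39 for si1-BCLIN25 and -0.29 for si2-BCLIN25. In the same order of siRNAs, the neighbours of MRPL33 had -0.33 and -0.31, of MRPL30 -0.32 and -0.31 and of MRPL53 -0.29 and -0.28. Those of MRPL19 had -0.27 and -0.26, and those of MRPL35 and MRPS5 -0.26 and -0.27 each. Around MRPL53, 38 of 50 neighbours were called lower and 4 higher in each comparison. MRPL44 had neighbours at 0.16 (si1-BCLIN25) and 0.14 (si2-BCLIN25), with 28 higher and 7 lower in si1-BCLIN25, the direction of MRPL44 itself. The 8 windows overlap, with 251 distinct genes in 400 places. Chromosome 20 held 1 of the 77 genes, MRPS26 (gene 64949), a small-subunit protein without a bacterial counterpart, at 37.6, 36.7 and 31.3 FPKM in si1-BCLIN25 and 40.2, 38.6 and 34.5 FPKM in si2-BCLIN25, against 41.1, 46.4 and 45.1 FPKM in si-NC. It fell by 0.32 with si1-BCLIN25 and 0.22 with si2-BCLIN25 (SE 0.073, limma adjusted p = 0.00205 and 0.0188), the si2-BCLIN25 call being lost without si-NC replicate 2 (0.0684), si-NC replicate 3 (0.0546) or si2-BCLIN25 replicate 3 (0.089). Of 315 other genes tested on chromosome 20, 181 fell and 53 rose with si1-BCLIN25, and with si2-BCLIN25 184 and 48.

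Over all 77 genes, the log2 fold change of a gene and the median of its neighbours correlated with Pearson's r = 0.61 and Spearman's rho = 0.49 in si1-BCLIN25 and r = 0.50 and rho = 0.39 in si2-BCLIN25. These describe points that share libraries and, in part, neighbours. Without chromosome 2 the values over 69 genes were r = 0.35 for si1-BCLIN25 and r = 0.21 for si2-BCLIN25. Of the called genes, those of chromosome 2 among them, 32 of 36 in si1-BCLIN25 and 26 of 34 in si2-BCLIN25 had the sign of their neighbours' median. The same share over all genes tested was not computed, so these counts describe no trait particular to these genes. Off chromosome 2, the largest rise and the largest fall with si1-BCLIN25, MRPS24 and MRPL15, did not have neighbours of like size. Around MRPS24 the medians were 0.03 in both comparisons, and around MRPL15 0.02 and 0.08, opposite in sign to the fall of MRPL15. Around MRPL41, by contrast, the 30 neighbours had medians of -0.16 for si1-BCLIN25 and -0.18 for si2-BCLIN25. Among the next largest rises with si1-BCLIN25, the neighbours of MRPS21, MRPL24 and MRPS18A had medians of 0.22, 0.16 and 0.17 in that comparison. Those of MRPS31 and MRPL28 had 0.0031 and 0.0055. On chromosome 6, a chromosome chosen after its values were seen, MRPS18A, MRPS18B, MRPS10 and MRPL2 rose in both comparisons, 4 of the 6 genes there, while 307 of 620 other genes tested rose and 115 fell with si1-BCLIN25, and with si2-BCLIN25 311 and 113. On chromosome 17, by contrast, 0 of 8 rose in either comparison, while of 727 other genes 312 rose with si1-BCLIN25 and 276 with si2-BCLIN25. On chromosome 11, 3 of 7 rose and 0 fell with si1-BCLIN25, and with si2-BCLIN25 0 and 1. Of 695 other genes there, 263 rose and 153 fell with si1-BCLIN25, and with si2-BCLIN25 268 and 166. On chromosome 9, 3 of 3 fell in both comparisons. Of 497 other genes there, 140 rose and 176 fell with si1-BCLIN25, and with si2-BCLIN25 145 and 168. On chromosome 1, 5 of 8 rose and 1 fell with si1-BCLIN25, and with si2-BCLIN25 3 and 2. Of 1284 other genes there, 601 rose and 247 fell with si1-BCLIN25, and with si2-BCLIN25 610 and 237.

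**Figure D4:**
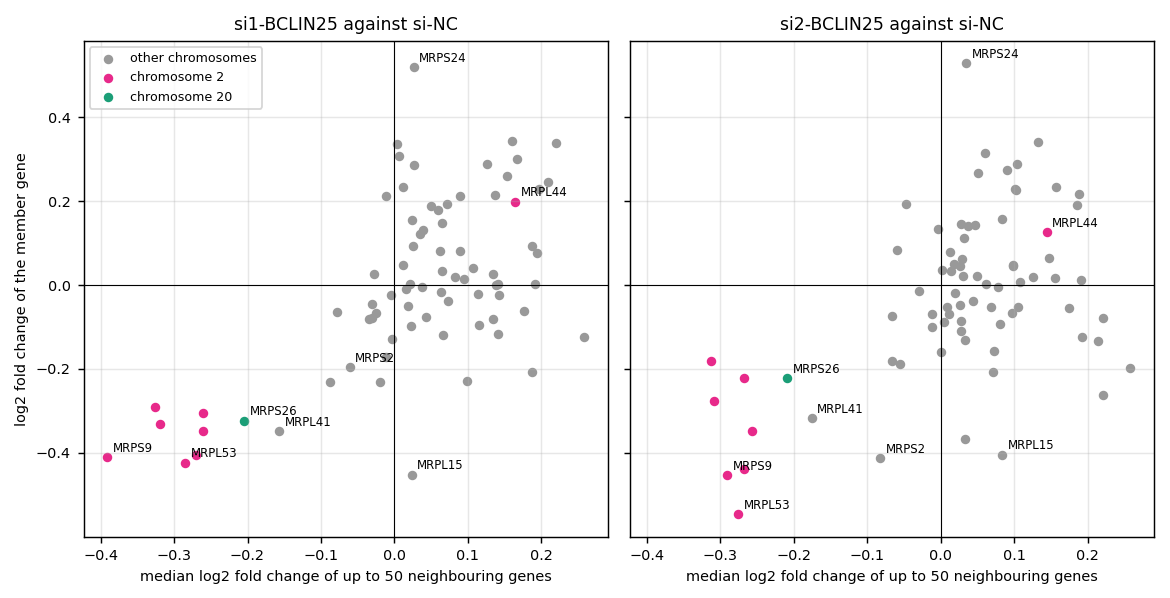
Log2 fold change of each of the 77 genes (vertical axis) against the median log2 fold change of up to 50 tested neighbours in RefSeq order (horizontal axis), for si1-BCLIN25 against si-NC on the left and si2-BCLIN25 against si-NC on the right, with chromosome 2 genes in pink and the chromosome 20 gene in green. Of the chromosome 2 genes, 7 lie at the lower left with their neighbours between -0.39 and -0.26, and MRPS24 and MRPL15 lie far from 0 with neighbours near 0.

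Between the siRNA groups, si2-BCLIN25 against si1-BCLIN25, 2 of the 77 genes were called, beside 0.585% of all genes tested (0.276% higher, 0.309% lower), and 16 (20.8%) had an unadjusted p under 0.05, beside 17.8% of all genes tested. MRPS2 (gene 51116, chromosome 9), counterpart of S2 of the bacterial small subunit, was at 30.9, 30.5 and 31.5 FPKM in si2-BCLIN25 and 35.2, 36.3 and 37.0 FPKM in si1-BCLIN25, beside 41.5, 43.0 and 40.25 FPKM in si-NC. The 3 groups did not overlap, and si2-BCLIN25 was lower than si1-BCLIN25 by a log2 fold change of -0.22 (SE 0.038, limma adjusted p = 0.0328), on top of falls against si-NC of -0.41 for si2-BCLIN25 and -0.20 for si1-BCLIN25 (adjusted p = 1.16e-06 and 0.000618). MRPS6 (gene 64968, chromosome 21), counterpart of the partner of S18 in bacteria, was at 93.6, 93.3 and 89.9 FPKM in si2-BCLIN25 and 84.35, 79.7 and 79.55 FPKM in si1-BCLIN25, beside 87.6, 89.9 and 86.8 FPKM in si-NC. Its log2 fold change between the siRNA groups was 0.18 (SE 0.036, limma adjusted p = 0.049), with a call against si-NC in si1-BCLIN25 alone (-0.12, adjusted p = 0.0134, and 0.0529 without si1-BCLIN25 replicate 3). MRPS6 overlaps SLC5A3, a myo-inositol transporter gene, at 13.5 ± 0.45 FPKM in si2-BCLIN25 and 12.1 ± 0.43 in si1-BCLIN25.

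Both calls between the siRNA groups were near the threshold. The MRPS2 call was lost in 8 alternatives, with adjusted p between 0.0575 and 0.152, and the MRPS6 call in 12, with adjusted p between 0.0507 and 0.204, in each case among them whenever si1-BCLIN25 replicate 2 or 3 or any si2-BCLIN25 library was left out. MRPL27 (gene 51264, chromosome 17), whose bacterial counterpart reaches the peptidyl transferase centre, was at 55.9, 53.6 and 53.9 FPKM in si2-BCLIN25, against 75.9, 68.7 and 67.4 FPKM in si-NC. It fell by 0.37 there (SE 0.050, limma adjusted p = 3.88e-05), while si1-BCLIN25 had 64.0, 62.15 and 68.5 FPKM and an adjusted p of 0.0527, with a call in 5 alternatives (adjusted p 0.0147 to 0.0499). The siRNA groups did not overlap, but their difference of -0.25 did not pass (limma adjusted p = 0.0514). Over the 77 genes the median of this comparison was -0.03, with a range of -0.25 to 0.18, and 19 genes had groups that did not overlap, beside 25.9% of all genes tested.

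A further 4 genes were singled out for their roles. MRPL12 (gene 6182, chromosome 17), counterpart of the L7/L12 stalk that recruits translation factors, was at 92.8 ± 1.63 FPKM in si1-BCLIN25 and 86.0 ± 1.17 in si2-BCLIN25, against 92.0 ± 7.0 FPKM in si-NC. It was called in neither, but lower in si2-BCLIN25 under median centring (adjusted p = 0.0177) and without si-NC replicate 3 (0.0439). MRPL58 (gene 3396, chromosome 17), a peptidyl-tRNA hydrolase built into the large subunit, was at 50.2 ± 3.25 FPKM in si1-BCLIN25 and 49.0 ± 2.56 in si2-BCLIN25, against 52.9 ± 1.82 FPKM in si-NC. MRPL57 (gene 78988, chromosome 13), with 8 pseudogenes named after it, was at 16.4 ± 0.95 FPKM in si1-BCLIN25 and 16.7 ± 0.54 in si2-BCLIN25, against 17.4 ± 2.06 FPKM in si-NC. Neither was called, but MRPL58 was called lower in si2-BCLIN25 under median centring (adjusted p = 0.0231), with the replicate block (0.0437) and without si2-BCLIN25 replicate 3 (0.0349). MRPS30 (gene 10884, chromosome 5) was called higher in si2-BCLIN25, at 20.8, 20.3 and 19.65 FPKM against 17.2, 18.3 and 19.2 FPKM in si-NC (0.14, SE 0.049, limma adjusted p = 0.0209). That call was lost under median centring (0.0943), without si-NC replicate 1 (0.0858) and without si2-BCLIN25 replicate 1 (0.0764) or 2 (0.0533). In all, 41 of the 77 genes have pseudogenes named after them and 32 overlap another gene in RefSeq, so their values may hold reads of other loci.

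Other genes of mitochondrial translation were counted in the same fit, from lists made with earlier results of these data known. Their counts are to be read beside the 63.1% (si1-BCLIN25) and 63.0% (si2-BCLIN25) of all genes tested that were called. Of 5 mitoribosomal proteins under other symbols, 1 rose and 2 fell in each comparison, with medians of -0.14 for si1-BCLIN25 and -0.08 for si2-BCLIN25. PTCD3, a small-subunit protein whose gene is on chromosome 2, was at 10.8, 10.5 and 10.3 FPKM in si1-BCLIN25 and 10.7, 11.3 and 11.2 FPKM in si2-BCLIN25, against 14.8, 14.0 and 15.2 FPKM in si-NC (-0.44 and -0.38, SE 0.046, limma adjusted p = 3.37e-06 and 1.36e-05). GADD45GIP1, a large-subunit protein, fell by 0.16 (si1-BCLIN25) and 0.18 (si2-BCLIN25), while DAP3, a GTP-binding protein of the small subunit, rose in si1-BCLIN25 by 0.12 and CHCHD1, also of the small subunit, in si2-BCLIN25 by 0.18. Of 15 translation factors, 6 rose and 4 fell with si1-BCLIN25, and with si2-BCLIN25 5 and 4 (66.7% called with si1-BCLIN25, 60.0% with si2-BCLIN25), with medians of 0.10 for si1-BCLIN25 and 0.04 for si2-BCLIN25. The membrane insertase OXA1L rose by 0.34 (si1-BCLIN25) and 0.30 (si2-BCLIN25) and the ribosome recycling GTPase GFM2 by 0.32 (si1-BCLIN25) and 0.37 (si2-BCLIN25). The initiation factor MTIF2, on chromosome 2, fell by 0.42 (si1-BCLIN25) and 0.37 (si2-BCLIN25) and the release factor MTRF1L by 0.40 (si1-BCLIN25) and 0.35 (si2-BCLIN25). Of 20 genes of mitochondrial tRNA charging, 17 synthetases and 3 subunits of the glutamyl-tRNA amidotransferase, 6 rose and 4 fell with si1-BCLIN25 and 5 and 5 with si2-BCLIN25, so that 10 of the 20 were called in each. The enzymes for cysteine, threonine, proline and tyrosine were called in both, CARS2 at 0.40 (si1-BCLIN25) and 0.38 (si2-BCLIN25), TARS2 at 0.43 (si1-BCLIN25) and 0.39 (si2-BCLIN25), PARS2 at 0.50 (si1-BCLIN25) and 0.53 (si2-BCLIN25) and YARS2 at -0.24 (si1-BCLIN25) and -0.34 (si2-BCLIN25).

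Assembly and RNA modification factors numbered 27, of which 6 rose and 6 fell with si1-BCLIN25, and with si2-BCLIN25 4 and 11 (44.4% called with si1-BCLIN25, 55.6% with si2-BCLIN25), with medians of -0.03 in each. RPUSD4, a pseudouridine synthase acting on the large ribosomal RNA, was at 9.14, 8.17 and 8.88 FPKM in si1-BCLIN25 and 8.38, 8.07 and 8.59 FPKM in si2-BCLIN25, against 12.05, 12.4 and 12.4 FPKM in si-NC. It fell by 0.45 (si1-BCLIN25) and 0.51 (si2-BCLIN25), and the matrix protein C1QBP by 0.21 (si1-BCLIN25) and 0.25 (si2-BCLIN25). In the other direction NGRN, which acts on the large ribosomal RNA, rose by 0.28 (si1-BCLIN25) and 0.28 (si2-BCLIN25) and METTL15, a methyltransferase of the small ribosomal RNA, by 0.40 (si1-BCLIN25) and 0.57 (si2-BCLIN25). TRMT61B, an RNA methyltransferase encoded on chromosome 2, fell by 0.42 (si1-BCLIN25) and 0.23 (si2-BCLIN25). Of 18 genes of mitochondrial transcription and RNA handling, 4 rose and 8 fell with si1-BCLIN25 and 3 and 8 with si2-BCLIN25 (66.7% called with si1-BCLIN25, 61.1% with si2-BCLIN25), with medians of -0.08 for si1-BCLIN25 and -0.02 for si2-BCLIN25. PNPT1, a polynucleotide phosphorylase, fell by 0.74 (si1-BCLIN25) and 0.80 (si2-BCLIN25), LRPPRC, which stabilises mitochondrial mRNAs, by 0.53 (si1-BCLIN25) and 0.44 (si2-BCLIN25), both on chromosome 2, and the transcription factor TFB2M, on chromosome 1, by 0.35 (si1-BCLIN25) and 0.39 (si2-BCLIN25). PNPT1 was at 14.6, 13.9 and 14.5 FPKM in si1-BCLIN25 and 13.7, 13.3 and 14.4 FPKM in si2-BCLIN25, against 25.8, 24.2 and 24.2 FPKM in si-NC.

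Of 11 regulators of mitochondrial biogenesis, 4 rose and 2 fell with si1-BCLIN25, and with si2-BCLIN25 5 and 2 (54.5% called with si1-BCLIN25, 63.6% with si2-BCLIN25), with medians of 0.07 for si1-BCLIN25 and 0.03 for si2-BCLIN25. PPARGC1A, a transcriptional coactivator of mitochondrial genes, was low, at 1.67, 1.63 and 1.75 FPKM in si1-BCLIN25 and 1.38, 1.51 and 1.74 FPKM in si2-BCLIN25, against 0.35, 0.21 and 0.25 FPKM in si-NC. Its siRNA libraries lay above all controls, with log2 rises of 1.08 with si1-BCLIN25 and 1.00 with si2-BCLIN25 (SE 0.080, with limma adjusted p = 1.68e-07 and 3.54e-07), a scale on which changes of low genes are understated. PPARGC1A was below 1 FPKM in every si-NC library and passed the filter through the siRNA libraries alone. A fall from that level would not have been tested. Its relative PPARGC1B, also low at 0.89 to 1.62 FPKM over the libraries, passed the filter in the same way. PPARGC1B rose by 0.39 (si1-BCLIN25) and 0.40 (si2-BCLIN25), and the transcription factor NFE2L1 by 0.32 (si1-BCLIN25) and 0.24 (si2-BCLIN25). The 2 regulators that fell were PPRC1, by 0.29 (si1-BCLIN25) and 0.32 (si2-BCLIN25), and GABPB1, by 0.27 in each comparison. Of the other GABP genes, GABPB2 rose by 0.26 (si1-BCLIN25) and 0.24 (si2-BCLIN25), and GABPA was called in neither comparison. NRF1 and YY1 were also called in neither. Whether these genes act on the mitochondrial ribosomal protein genes in these cells was not tested.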

How the data were processed

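RNA was sequenced on a BGI platform, per the labels' protocols. The authors deposited 1 table of FPKM per gene and library, per the file headers; the submitters' processing notes name RSEM 1.2.12, DESeq2 1.4.5, HISAT2 2.0.4 and Bowtie2 2.2.5 with no role stated, and the genome build is not given in the sources used here. Gene identifiers were matched to RefSeq (GRCh38.p14; 17748 of 18064 rows), which also gave chromosomes and gene order. The deposited FPKM hold no counts, so depth is unknown and no counting interval is given.

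The 12317 genes that reached 1 FPKM in 3 or more libraries were tested on log2(FPKM + 1), with group means over all 9 libraries in limma 3.58.1 (R 4.3.3, moderated variances with a trend). Benjamini-Hochberg adjustment ran over all genes tested, with a threshold of 0.05; fold changes on this scale understate changes of low genes. Every adjusted p in the text is from this fit or a named alternative of it. In data simulated from these libraries over 12317 genes (the comparison of si1-BCLIN25 with si-NC), 90% of genes changed by 1.25-fold, 98% at 1.5-fold and 100% at 2-fold and 4-fold were recovered, with 12 unchanged genes called and 0 in an unchanged group. Few genes were changed there, all well above the filter, and noise was drawn for each gene on its own. The simulation therefore does not cover low genes, shifts shared by a whole library or data in which 63.1% of genes are called.

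The genes and lists were chosen with earlier results of these data known, so no list was tested as a set. Named were the 6 largest rises and falls per siRNA group among called genes with groups that do not overlap, called genes between the siRNA groups, the 4 highest and 4 lowest in level, genes listed for their roles, those of chromosomes 2 and 20, and up to 3 called genes per other list with the smallest p. MRPL2, PPRC1, GABPA, GABPB1, GABPB2, NRF1 and YY1 were named after their values were seen. Of the rows tested, 10 were identical to another row, 0 of them mitochondrial ribosomal protein genes. Same-numbered libraries showed no strong shared deviation, with correlations between -0.16 and 0.14. With 3 libraries per group a weak pairing could not be seen. Alternatives were quantile normalization, median centring, only the 2 groups compared, limma without trend, a pseudocount of 0.1, a replicate block, a minimum of 5 FPKM, no filter and each library left out; leaving out chromosomes 2 and 20 was added after the data were seen. Mitochondrially encoded genes were not analysed here.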

Additional observations from a re-analysis of the deposited data

How the results depend on the processing

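The counts of genes called against si-NC stayed within 1.5 times of 36 (si1-BCLIN25) and 34 (si2-BCLIN25) under every alternative run, at 27 to 38 and 27 to 38. With chromosomes 2 and 20 left out, an alternative added after the data were seen, 19 rose and 8 fell with si1-BCLIN25, and with si2-BCLIN25 15 and 12. These counts leave out the 8 mitochondrial ribosomal protein genes of chromosome 2 and the 1 of chromosome 20. Median centring moved the medians to -0.0481 and -0.0698; with single libraries left out they ran from -0.0218 to 0.0171 in si1-BCLIN25, -0.0773 (without si-NC replicate 3) to 0.0005 in si2-BCLIN25 and -0.0469 to -0.013 between the siRNA groups. Between the siRNA groups the 2 calls became 0 with no filter, without trend and with the replicate block, 1 with median centring, a pseudocount of 0.1 and without chromosomes 2 and 20, 3 with a minimum of 5 FPKM, 4 with only the 2 groups compared, and 0 to 3 with 1 library left out. The call higher became 0 also with quantile normalization and 0 to 1 with 1 library left out; the call lower became 2 with quantile normalization and a minimum of 5 FPKM, 3 with only the 2 groups compared, and 0 to 2 with 1 library left out. The replicate block gave 20 higher and 16 lower in si1-BCLIN25 and 15 and 21 in si2-BCLIN25. Own-number libraries matched best in 2 of 9 cases, and a weak pairing could not be seen with 3 libraries per group. Signs turned only for genes not called in that comparison. Median centring turned MRPL12 in si1-BCLIN25 to -0.0339, MRPS25 in si2-BCLIN25 to -0.0301 (-0.0704 with quantile normalization) and MRPS15 in si2-BCLIN25 to -0.0044. With 1 library left out, values in si1-BCLIN25 ran from -0.0108 to 0.2086 for MRPL51, -0.0706 to 0.0162 for MRPS18C, -0.0196 to 0.0758 for MRPL12 and -0.1482 to 0.0068 for MRPL57. In si2-BCLIN25 they ran from -0.0199 to 0.0443 for MRPS25, -0.1393 to 0.0801 for MRPL51, -0.0045 to 0.1033 for MRPS15 and -0.1146 to 0.0405 for MRPL57. Beside the gains and losses given with the genes, calls were gained by MRPL22 (3 alternatives in si1-BCLIN25, adjusted p 0.0374 to 0.0441, and 0.0306 in si2-BCLIN25 without its replicate 2), MRPS25 in si1-BCLIN25 with quantile normalization (0.0406) and MRPL51 in si1-BCLIN25 without si-NC replicate 1 (0.00752). Of 1258 alternative values of 36 named genes, 1179 kept their direction and side of the threshold. The causes were not tested, and the unknown depth limits what the low genes can show.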
